A study of Danio rerio with 35 samples.

Results

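The genes described here had a lower level in both old wildtype and young granulin mutant zebrafish than in young wildtype ones. The tissue was the telencephalon, the front of the forebrain. They were 130 of the 15075 genes with a mean level of at least 50 over the 20 telencephalon libraries (0.862%), and of 24030 genes listed in all. A level is a gene's read count divided by the size factor of its library, and differences are on the scale of log2(level + 1). Each of the 130 genes had a mean difference of -1 or lower both in old wildtype and in young mutant telencephali, each against young wildtype telencephali. In each of them, too, the highest of the 10 old wildtype and young mutant libraries lay below the lowest of the 5 young wildtype libraries. These levels chose the genes, so in those 3 groups they are given as a description, with no test. The sorted cells had no part in the choice. The old mutant telencephali entered it only through the mean over the 20 libraries, which all 130 genes also met over the 15 others, and they share their control libraries with it.

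The study asked whether loss of both progranulin genes, grna and grnb, speeds aging of the adult zebrafish brain. Whole telencephali came from old wildtype, young mutant, old mutant and young wildtype fish, 5 libraries each, where old was 18 months, young was 5 months and mutant was grna-/-;grnb-/-, and the study's methods describe both genotypes as offspring of the same parents. Red cells were sorted from telencephali of 5-month-old Tg(olig2:DsRed) fish, giving Olig2+ cells (4 mutant and 4 wildtype libraries), and of Tg(mpeg1:mCherry) fish of the same age, giving Mpeg1+ cells (4 mutant and 3 wildtype libraries). Each sorted library pooled 3 telencephali, and the olig2 and mpeg1 promoters, active in the oligodendrocyte and macrophage lineages, decide which cells carry the reporter. The study reports neuronal genes in its Olig2+ cells too, and relates them to Olig2 in some neuronal progenitors of the ventral telencephalon. Olig2+ cells are therefore not oligodendroglia alone. The 2 genotypes of a reporter line were kept as lines of their own, and whether they share parents or tanks is not given in the sources used here. Nothing in the labels says more of each replicate than its number, so p-values measure the spread between these libraries.

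Progranulin is a secreted and lysosomal protein that is cut into smaller granulins, is abundant in microglia and neurons, and restrains the activation of microglia. Its loss causes lysosomal storage and neurodegeneration in mammals. Aging of the vertebrate brain is usually described by genes that rise, such as those of immune cells, beside a slower loss of neurogenic, matrix and synaptic expression. The zebrafish telencephalon keeps radial glia (ependymoglia) that make neurons throughout life, olig2-positive cells of the oligodendrocyte lineage, and microglia, and a whole-tissue level mixes all of them. In such tissue, fewer cells of a type and less RNA per cell cannot be told apart.

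The telencephalon libraries held between 13891845 and 29426822 reads counted to genes. Lists of marker genes of 9 cell types or tissues contained none of the 130 genes. The summed level of 12 ependymoglial markers lay between 176250 and 211640 in old wildtypes, between 171040 and 212400 in young mutants and between 156170 and 204450 in old mutants, against 128420 to 173440 in young wildtypes. That of 13 lymphocyte markers lay between 326 and 432 in old wildtypes, between 229 and 416 in young mutants and between 247 and 354 in old mutants, against 212 to 254 in young wildtypes. Median levels over the 12 ependymoglial markers were 4157.5 to 5842.5 in old wildtypes and 3214 to 5679 in young mutants. They were 2364 to 3853 in old mutants, against 4116 to 5477 in young wildtypes. Sums of 10 endothelial markers overlapped between groups. Their median levels were 207 to 272 in old wildtypes, 183 to 246 in young mutants and 180 to 299 in old mutants. In young wildtypes they were 259 to 329. The part of these cell types in the results was not tested. Pineal markers were high in 1 old wildtype, 2 young mutant and 1 old mutant library, against 3 young wildtype libraries. Without those 7 libraries the same conditions picked 163 genes, 103 of the 130 among them.

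The 130 genes fell into groups by what their products do. Metabolic enzymes were 24, surface and matrix proteins 19, transcription and RNA factors 16, ubiquitin, sorting and cytoskeletal proteins 16, signalling proteins 11 and immune proteins 9. A further 2 had other known roles and 33 were not grouped, most of them known only by a clone or locus name. In all, 100 had a gene symbol, 21 a clone or locus name and 9 an identifier alone. The median difference was -1.55 in old wildtype telencephali, with a range of -7.43 to -1.01, and -1.60 in young mutant telencephali, with a range of -7.67 to -1.0003. The medians over the 15075 genes were 0.0077 and -0.0047 in the same comparisons.

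Most of the genes were lowered moderately. Both differences lay between -2 and -1 for 80 genes, at or under -2 for 27 and at or under -3 for 12. In 78 genes the old wildtype and young mutant means differed by less than 0.5, while the young mutants were lower by more than 1 in 10 and the old wildtype fish in 7. Lowering without overlap was met by 433 genes with age and by 311 genes in young mutants, so the 130 genes were 30% of the one set and 41.8% of the other, a count that the shared young wildtype libraries help to fix. A further 126 genes met both mean differences with libraries that overlapped.

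Just inside the threshold stood GLG1, a Golgi glycoprotein, with differences of -1.73 in old wildtype and -1.0003 in young mutant telencephali, and arhgap35b, a GTPase-activating protein, with -1.01 and -1.72 in the same order. The third, a gene with no symbol, had -1.76 and -1.01. Just outside stood the clustered protocadherin pcdh1g32 with -0.99 and -1.77, vopp1 with -0.98 and -1.58, and nub1, a regulator of ubiquitin-like NEDD8, with -1.16 and -0.98.

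**Figure D1:**
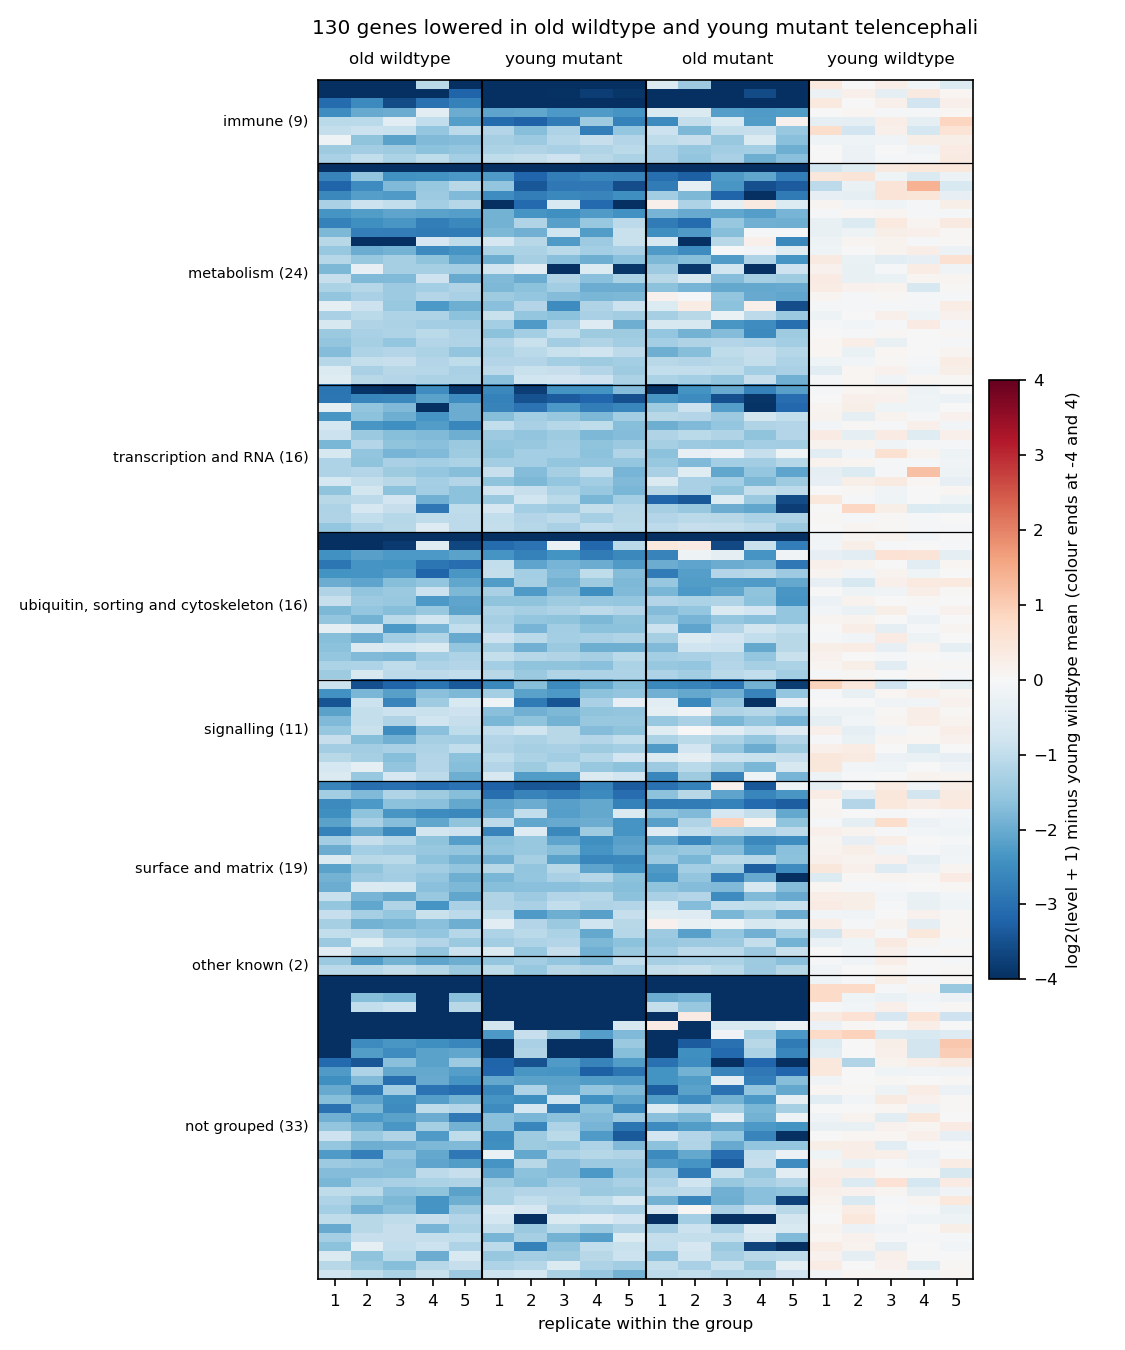
Each line is 1 of the 130 genes, grouped by function with the number in each group, and each column is 1 telencephalon library of old wildtype, young mutant, old mutant and young wildtype fish. Colour is log2(level + 1) minus the gene's young wildtype mean, with blue for lower. The old wildtype and young mutant columns are blue by selection, the old mutant columns, which entered the selection only through the mean level, are blue for most genes, and single pale or red cells show libraries that stand apart.

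Immune genes included the targeted progranulin itself. The level of grnb was 80.2, 118, 57.2, 86.2 and 106 in old wildtype, 12.7, 20.2, 15.6, 20.3 and 14.9 in young mutant and 21.3, 21.1, 15.8, 15.9 and 4.87 in old mutant telencephali, against 905, 684, 789.9, 408 and 792 in young wildtype telencephali. All 15 lowered libraries lay far under the young wildtype range, and both mutant groups lay under the old wildtype libraries. The difference was -2.98 in old wildtype, -5.31 in young mutant and -5.50 in old mutant telencephali. Since grnb is mutated in the fish, its low count in mutants says nothing of other genes, and reads of a mutated gene do not measure its protein. The other progranulin gene, grna, was not among the 130.

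A chain of MHC class II, mhc2dab, which presents peptides to T cells, was at 18.3, 8.85, 6.44, 5.12 and 36.9 in old wildtype, 18, 15.7, 21.6, 24.6 and 22.9 in young mutant and 11.5, 7.39, 14.1, 28.5 and 20.5 in old mutant telencephali, against 297, 403, 265, 450.1 and 374 in young wildtype telencephali. The groups did not overlap, and the highest lowered library lay far below the lowest young wildtype library. An interferon-inducible GTPase, irge4, was at 2.29, 0, 2.42, 78.5 and 1.15 in old wildtype, 1.06, 0, 2.59, 1.45 and 0.995 in young mutant and 112, 60.1, 0.879, 0.837 and 0 in old mutant telencephali, against 215, 168, 198, 153 and 113 in young wildtype telencephali. Most lowered libraries held a few reads of irge4 or none, while 1 old wildtype and 2 old mutant libraries held intermediate levels. Both genes belong to families with near-identical copies and haplotypes, so reads may have been shared or lost among copies.

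Another fish-expanded family gave trim35-28, a tripartite motif protein, at 174, 241, 245, 718 and 246 in old wildtype, 226, 230.2, 196, 202 and 189 in young mutant and 634, 651, 213, 203 and 208 in old mutant telencephali, against 960.2, 1019, 951, 918 and 1033 in young wildtype telencephali. Here 1 old wildtype and 2 old mutant libraries stood nearer the young wildtype levels than the rest did. The decoy receptor il13ra2, which binds interleukin 13, was at 53.8, 54.1, 85.4, 57.2 and 24.2 in old wildtype, 12.7, 11.2, 15.6, 42 and 16.9 in young mutant and 18.9, 59.1, 75.6, 23.4 and 129 in old mutant telencephali, against 88.3, 87.6, 139, 88.5 and 208 in young wildtype telencephali, and 1 old mutant library reached the young wildtype range. The remaining immune genes were itgam.1 (an integrin chain of myeloid cells), tnfsf10 (the death ligand TRAIL), card19 and cd226 (an adhesion receptor of lymphocytes), with differences of -1.06 to -1.49 in old wildtype and -1.03 to -1.68 in young mutant telencephali. All 4 lay wholly below young wildtype in old mutants as well.

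Among metabolic genes the lowest was apip, the dehydratase of the methionine salvage pathway, which returns the methylthio group of spent polyamine precursors to methionine. Its level was 4.58, 2.95, 8.05, 4.27 and 5.77 in old wildtype, 2.12, 8.98, 0.864, 4.35 and 3.98 in young mutant and 2.46, 0, 2.64, 0.837 and 0.975 in old mutant telencephali, against 254, 299, 543, 561 and 559 in young wildtype telencephali. No lowered library reached 10, and every young wildtype library was at 253.6 or more, so few reads of the gene were counted in old and in mutant telencephali. The ornithine aminotransferase oat, which links ornithine to glutamate and proline in mitochondria, was at 114, 244, 135, 138 and 149 in old wildtype, 152, 80.8, 107, 120.3 and 115 in young mutant and 90.2, 74.9, 151, 173 and 108 in old mutant telencephali, against 1017, 1041, 656, 493 and 626 in young wildtype telencephali. The lowered groups overlapped each other and none of them reached young wildtype levels.

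In sterol metabolism, hmgcra, the rate-limiting reductase of cholesterol synthesis, was at 67.5, 108, 184, 219 and 288 in old wildtype, 209, 59.5, 85.5, 85.5 and 52.7 in young mutant and 90.2, 492, 124, 53.6 and 61.4 in old mutant telencephali, against 303, 522, 892, 1665 and 414 in young wildtype telencephali. Its young wildtype libraries themselves spread widely, and 1 old mutant library reached them. The neuronal cholesterol hydroxylase cyp46a1.2, which starts the removal of brain cholesterol, had differences of -1.40 in old wildtype, -1.01 in young mutant and -1.35 in old mutant telencephali. Of the enzymes that set fructose 2,6-bisphosphate, the activator of glycolysis, the paralogues pfkfb2b and pfkfb2a were among the genes. The level of pfkfb2b was at 198, 220.2, 236, 235 and 223 in old wildtype, 275, 201, 186, 212 and 191 in young mutant and 286, 252, 242, 224 and 284 in old mutant telencephali, against 973, 1087, 1115, 989 and 998 in young wildtype telencephali, with narrow groups, where the old and mutant ones overlapped each other and stood clear of young wildtype. The other, pfkfb2a, had differences of -1.37, -1.20 and -1.27 in old wildtypes, young mutants and old mutants.

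GABA transaminase, abat, which breaks down the inhibitory transmitter GABA, was at 1950, 2228, 2334, 2562 and 2304 in old wildtype, 1756, 2114, 2744, 2026 and 2049 in young mutant and 1880, 1463, 1640, 925 and 2038 in old mutant telencephali, against 5415, 5164, 5659, 5397 and 5572 in young wildtype telencephali. Of the 5 old mutant libraries 3 lay below every other library, and the lowered groups were far from young wildtype. The pantothenate kinase pank1b, at the entry to coenzyme A synthesis, was at 237, 309, 297, 518 and 414 in old wildtype, 251, 208, 238, 225 and 259.6 in young mutant and 537, 405, 154, 81.2 and 199.8 in old mutant telencephali, against 1130, 1111, 2031, 1994 and 1141 in young wildtype telencephali. Other amino acid enzymes were aldh18a1 (proline synthesis), gcdhb (lysine and tryptophan breakdown), kyat3 (kynurenine aminotransferase), thnsl2 and cthl, a relative of cystathionine gamma-lyase, with differences of -2.54 to -1.04 in old wildtype and -1.72 to -1.09 in young mutant telencephali. The arsenite methyltransferase as3mt had -2.56, -1.57 and -2.26 in old wildtypes, young mutants and old mutants. Lipid enzymes were smpd2a (a neutral sphingomyelinase), lipeb (hormone-sensitive lipase), dolpp1 (dolichol recycling), phyhd1 and tm6sf2, and purine and nucleotide enzymes were adss, entpd5b and nudt22.

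Transcription factors of the forebrain and its progenitors were 5 of the genes. The zinc finger factor fezf2, which specifies dorsal forebrain neurons and is kept in adult neural stem cells, was at 90.5, 110.1, 110.4, 151 and 118 in old wildtype, 102, 59.5, 66.5, 73.9 and 57.7 in young mutant and 131, 116, 58, 44.4 and 80.9 in old mutant telencephali, against 684, 769, 751, 599 and 571 in young wildtype telencephali. The difference was -2.54 in old wildtype, -3.23 in young mutant and -3.06 in old mutant telencephali, and no lowered library came near the young wildtype range. The SOX factor sox4b, used by new neurons, was at 293, 129, 113, 23.1 and 96.9 in old wildtype, 59.4, 48.3, 77.7, 55.1 and 61.7 in young mutant and 142, 212, 82.6, 24.3 and 42.9 in old mutant telencephali, against 414, 450.4, 339, 340.1 and 386 in young wildtype telencephali. Its old wildtype libraries spread from far below to nearly the young wildtype range.

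The circadian activator clocka was at 72.1, 117, 95, 70.8 and 92.3 in old wildtype, 112, 142, 128, 106 and 140.3 in young mutant and 169, 164, 134, 220.2 and 185 in old mutant telencephali, against 404, 284, 403, 359 and 412 in young wildtype telencephali. Old mutants stood between the old wildtype fish and the young wildtype fish, with every old mutant library above every old wildtype one. The homeobox cofactor pbx4 was at 665, 1056, 784, 746 and 847 in old wildtype, 818, 831, 917, 783 and 849.6 in young mutant and 954, 868, 831, 934 and 916 in old mutant telencephali, against 2636, 2617, 2165, 2263 and 2282 in young wildtype telencephali, and tcf3b, an E-protein partner of proneural factors, had differences of -1.08, -1.14 and -1.17 in old wildtypes, young mutants and old mutants. In both of them the replicates were tight and the 3 lowered groups lay at about the same level. The glial factor sox8b had -1.42, -1.37 and -1.51 in the same order, with 1 old mutant library inside the young wildtype range.

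EIF1B, which helps choose the start codon of translation, was at 196, 99.3, 93.4, 266 and 103 in old wildtype, 249, 110, 286, 288 and 455 in young mutant and 97.6, 288, 369, 228 and 336 in old mutant telencephali, against 1469, 1593, 1655, 1303 and 1522 in young wildtype telencephali. Young wildtype libraries were all at 1303 or more and no other library passed 454.6. Stress and RNA genes were atf6, a sensor of unfolded protein in the endoplasmic reticulum, with -1.36, -1.49 and -1.43 in old wildtypes, young mutants and old mutants, the CCR4-NOT subunits cnot7 and cnot6b, which shorten poly(A) tails, and factors of RNA polymerase I (taf1b) and III (gtf3c6). The last, gtf3c6, had -1.09 in all 3 groups.

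The lowest gene of all was klhl41b, a kelch protein that with cullin 3 stabilises muscle thin filaments. Its level was 5.72, 3.93, 7.25, 3.41 and 3.46 in old wildtype, 3.18, 4.49, 5.18, 7.25 and 0.995 in young mutant and 0, 0, 0.879, 1.68 and 0 in old mutant telencephali, against 879, 1031, 1059, 892 and 952 in young wildtype telencephali. The gene had a few reads at most in every old and every mutant library, and 879.3 or more in young wildtype libraries. A second gene known from muscle, the Z-disc LIM protein ldb3a, was at 28.6, 41.3, 40.3, 28.2 and 25.4 in old wildtype, 109, 49.4, 58.7, 53.6 and 43.8 in young mutant and 54.1, 49.6, 53.6, 56.9 and 29.2 in old mutant telencephali, against 251, 239, 218, 159 and 229 in young wildtype telencephali. No lowered library overlapped young wildtype, and the other muscle and kelch genes on the list checked were not among the 130.

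Of the ubiquitin control of the cell cycle, skp2, the F-box protein that marks the inhibitor p27 for degradation, was at 21.8, 22.6, 24.2, 11.9 and 23.1 in old wildtype, 61.5, 46, 34.5, 58 and 34.8 in young mutant and 16.4, 25.3, 52.7, 54.4 and 42.9 in old mutant telencephali, against 128, 109.6, 132, 105 and 121 in young wildtype telencephali. The ubiquitin-conjugating enzyme ube2s, which works with the anaphase-promoting complex, had differences of -1.33, -1.58 and -1.63 in old wildtypes, young mutants and old mutants. Sorting genes were tsg101b, a subunit of the ESCRT-I complex that draws ubiquitinated receptors into multivesicular bodies, at 36.6, 33.4, 45.1, 48.7 and 34.6 in old wildtype, 30.8, 58.4, 39.7, 55.1 and 41.8 in young mutant and 50.9, 30.6, 30.8, 30.1 and 35.1 in old mutant telencephali, against 118, 95, 171, 196 and 193 in young wildtype telencephali, and the endosomal sorting nexin snx16, with -1.25, -1.56 and -1.17. The old and mutant libraries of tsg101b formed 1 narrow band. The apoptosis kinase dapk3, the ArfGAP acap3b and the calpain CAPN1 had differences of -1.66 to -1.03 in old wildtype and -1.54 to -1.14 in young mutant telencephali.

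Of the 11 signalling genes 4 were on the list of cyclic nucleotide and calcium genes. The adenylate cyclase adcy3a, which makes cAMP at neuronal cilia, was at 274, 279, 298, 309 and 366 in old wildtype, 316, 291, 294, 272 and 280.5 in young mutant and 149, 432, 245, 183 and 272 in old mutant telencephali, against 844, 897, 738, 498 and 729 in young wildtype telencephali. Its relative adcy1a had differences of -1.39, -1.12 and -0.72 in old wildtypes, young mutants and old mutants, and the cGMP phosphodiesterase pde5ab had -1.98, -1.81 and -2.02. The kinase camk2b1, a beta chain of CaMKII, which supports synaptic plasticity, was at 870.2, 501, 428, 656 and 624 in old wildtype, 721, 679, 752, 723 and 833 in young mutant and 675, 779, 679.5, 564 and 723 in old mutant telencephali, against 1560, 1366, 1746, 1707 and 1830 in young wildtype telencephali. Neither adcy3a nor camk2b1 had a lowered library inside the young wildtype range.

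The melanosome receptor gpr143 was at 145, 336, 357, 352 and 362 in old wildtype, 204, 172, 186, 213 and 218 in young mutant and 499, 584, 279, 297 and 254 in old mutant telencephali, against 569.5, 569.7, 677, 779 and 677 in young wildtype telencephali. Every old mutant library was above every young mutant library, and 1 reached young wildtype. The somatostatin gene sst1.2, a neuropeptide of interneurons, was at 29.8, 186, 53.2, 126 and 222 in old wildtype, 302, 47.2, 30.2, 136 and 272 in young mutant and 249, 55.9, 112, 10.9 and 266 in old mutant telencephali, against 343, 343, 309, 315 and 385 in young wildtype telencephali. Young wildtype levels were tight and the lowered libraries scattered widely below them. The Wnt antagonist sfrp5 had -1.15, -1.29 and -1.73, the kinase nim1k -1.13, -1.66 and -1.62, and the calcium channel regulator rem1 -2.77, -2.12 and -2.76 in old wildtypes, young mutants and old mutants.

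Surface and matrix genes held cross-linkers, guidance factors and transporters. The lysyl oxidase loxl2b, which cross-links collagen, was at 120.2, 162, 170, 152 and 114 in old wildtype, 125, 152, 182, 202 and 143 in young mutant and 85.3, 148, 62.4, 109 and 26.3 in old mutant telencephali, against 306, 460.1, 485, 464 and 562 in young wildtype telencephali. The collagen VIII chain col8a1b was at 55, 80.6, 98.3, 93.9 and 81.9 in old wildtype, 112, 82, 114, 56.5 and 44.8 in young mutant and 50.05, 95, 90.5, 24.3 and 41.9 in old mutant telencephali, against 335, 284, 173, 209 and 264 in young wildtype telencephali. Both stood clear of young wildtype in every lowered library, as did the collagen chaperone serpinh1a and the matrix protein abi3bpb, the gene next to col8a1b in the zebrafish gene order of RefSeq.

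The aquaporin aqp8b was at 127, 99.3, 147, 125 and 103 in old wildtype, 41.4, 51.6, 47.5, 56.5 and 39.8 in young mutant and 107, 156, 77.3, 54.4 and 66.3 in old mutant telencephali, against 418, 253, 466, 205 and 437 in young wildtype telencephali. The young mutant mean was the lowest, and 1 old mutant library lay within the young mutant range. Of the Rhesus ammonium transporter family, rh50 was at 35.5, 42.3, 66.9, 65.7 and 50.8 in old wildtype, 47.7, 52.8, 45.8, 50.7 and 31.8 in young mutant and 28.7, 29.5, 31.6, 23.4 and 20.5 in old mutant telencephali, against 223, 93.7, 285, 254 and 274 in young wildtype telencephali, with every old mutant library below every library of the other groups. The clustered protocadherin pcdh1g11 was at 35.5, 27.5, 28.2, 25.6 and 28.8 in old wildtype, 23.3, 20.2, 20.7, 34.8 and 21.9 in young mutant and 27.9, 33.8, 258, 20.9 and 204 in old mutant telencephali, against 175, 229, 279, 206 and 266 in young wildtype telencephali. Its old wildtype and young mutant libraries were alike, and old mutants fell into 3 low and 2 high libraries. Such genes share sequence, so its reads may have been divided among them.

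The membrane protein itm2ba, which is known as BRI2 and is abundant in neurons, was at 3768, 9995, 9829, 4643 and 4333 in old wildtype, 4604, 4656, 4716, 4856 and 4555 in young mutant and 4916, 4509, 4378, 9507 and 4449 in old mutant telencephali, against 15890, 14200, 14070, 14980 and 15540 in young wildtype telencephali. In 2 old wildtype and 1 old mutant libraries its level lay about midway between the other lowered libraries and the young wildtype ones. Further genes of axons and synapses were the semaphorin sema4ba (-2.29 in old wildtype and -1.57 in young mutant telencephali), the AMPA receptor auxiliary protein frrs1l (-1.57 and -1.85), pcdh7b (-1.15 and -1.66), pcdh20 (-1.25 and -1.35) and the heparan sulfate polymerase ext1b (-1.77 and -1.90).

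Outside these groups stood tep1, a protein of telomerase and vault particles, with -1.15, -1.23 and -1.10 in old wildtypes, young mutants and old mutants. Among genes with no assigned role, si:dkey-9c18.3 was at 2.29, 1.97, 4.03, 0.854 and 2.31 in old wildtype, 1.06, 2.25, 2.59, 0 and 0 in young mutant and 1.64, 0, 0.879, 2.51 and 0 in old mutant telencephali, against 319.9, 344, 429, 350.2 and 372 in young wildtype telencephali. Like klhl41b and apip it had next to no reads outside young wildtype, and these 3 and 1 gene with an identifier alone were the 4 genes with every old wildtype and young mutant library under 10.

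**Figure D2:**
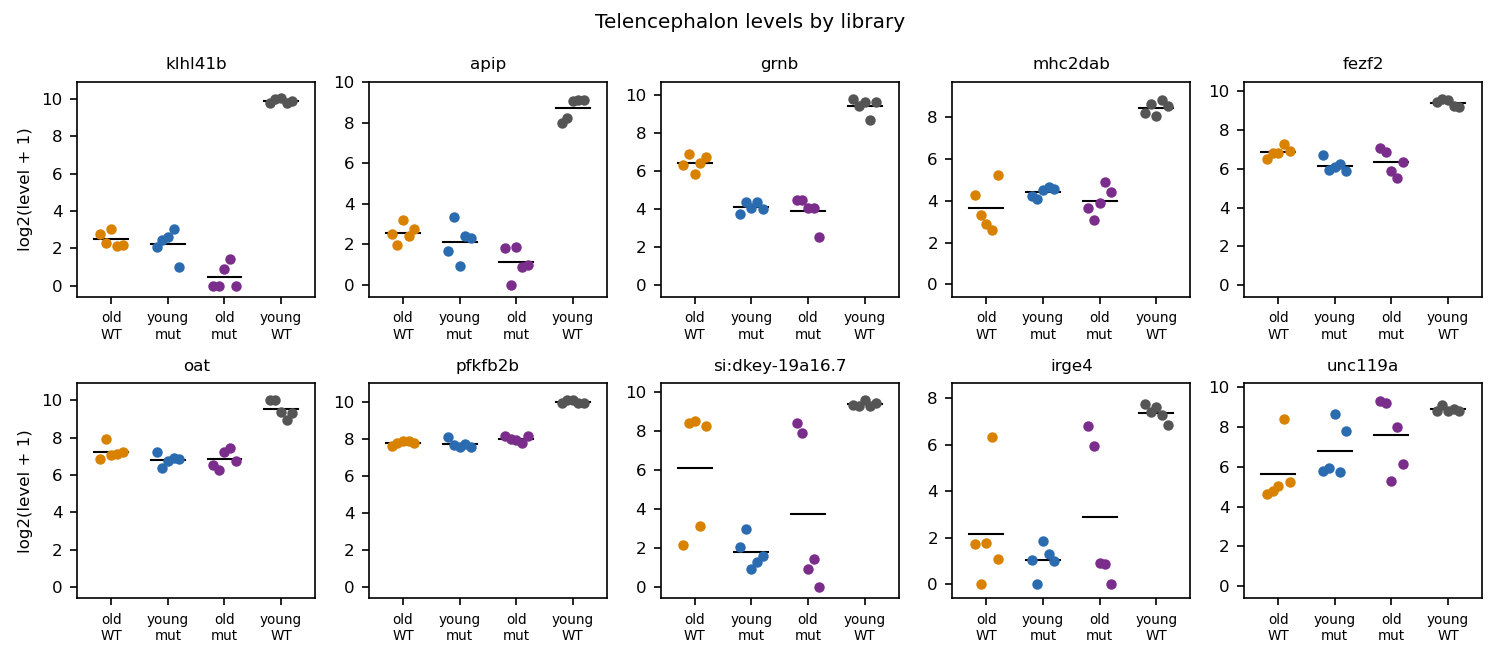
Levels of 10 of the genes as log2(level + 1), with 1 point per telencephalon library (5 per group) and a line at the group mean, for old wildtype, young mutant, old mutant and young wildtype fish. In klhl41b and apip all 15 old or mutant libraries lie near 0, in pfkfb2b and fezf2 they form tight lower bands, and in si:dkey-19a16.7, irge4 and unc119a libraries of 1 group lie at 2 levels.

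The genes formed part of each of 16 lists of related genes and the whole of none. These lists were chosen with earlier results of these data known, so the shares are a description and decide nothing about pathways. The share among the 130 ranged from 1 of 17 measured antigen presentation genes to 1 of 2 measured granulins. Of all 15075 genes, 0.862% were among the 130. For methionine, cysteine and one-carbon metabolism it was 4 of 19 (apip, as3mt, cthl, thnsl2), for mitochondrial amino acid enzymes 4 of 18 (abat, aldh18a1, gcdhb, oat) and for forebrain and progenitor transcription factors 5 of 30 (fezf2, pbx4, sox4b, sox8b, tcf3b). Protocadherin and guidance genes gave 4 of 29, matrix genes 4 of 26 and cyclic nucleotide and calcium genes 4 of 28. The median differences of several whole lists were near 0: methionine and cysteine genes had -0.12 in old wildtype and -0.03 in young mutant telencephali, mitochondrial amino acid enzymes -0.03 and -0.04, and cyclic nucleotide and calcium genes 0.07 and 0.13. Sterol genes pointed different ways, with 0.74 and -0.25, and forebrain factors lay below 0 in both, with -0.45 and -0.39. Antigen presentation genes, mhc2dab among them, lay above 0 in both, with 0.43 and 0.35. So did clock and light reception genes, clocka among them, with 0.43 and 0.54. In each of these lists 2 genes were higher by 1 or more in both comparisons, without overlap. The lists with the lowest medians were the 2 measured granulins, with -1.19 and -2.91, and the muscle Z-disc and kelch genes, with -1.36 in old wildtype but -0.02 in young mutant telencephali.

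Old mutants, which entered the selection only through the mean level, were low for most of the genes. Every old mutant library lay below every young wildtype library in 104 of 130 genes (80%), where 8.82% of the 15075 genes did so. The old mutant mean was lower by 1 or more on the log2 scale in 118 genes, and below the young wildtype mean in all 130. The median difference was -1.53, with a range of -9.44 for klhl41b to -0.31 for GLG1. The value of klhl41b depends on the pseudocount, since old mutant libraries held next to no reads of it. Because the same 5 young wildtype libraries served both the selection and this comparison, the 2 are not independent, and the count is a description. By function, old mutants lay wholly below young wildtype in 8 of 9 immune, 17 of 24 metabolic, 14 of 16 transcription and RNA, 14 of 16 ubiquitin, sorting and cytoskeletal, 8 of 11 signalling, 16 of 19 surface and matrix and 25 of 33 ungrouped genes.

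Against the other lowered groups, the old mutants had median differences near 0. Those groups were chosen low, so a further fall in old mutants could be hidden, and the values are a description. The median difference between old mutants and young mutants was 0.07, with a range of -2.82 to 3.07, and that between old mutants and old wildtype fish was -0.02, with a range of -3.46 to 4.30. All old mutant libraries lay below all young mutant ones in 4 genes (rh50, card19, cd226 and si:dkey-262k9.2), beside 3.24% of the 15075 genes, and above them in 2 (gpr143 and ppp1r16b), beside 5.09%. All lay below old wildtype in 5 genes (klhl41b, apip, grnb, rh50 and dolpp1), beside 3.60%, and above it in 6, among them clocka, adcy1a, ppp1r16b and GLG1, beside 4.31%. As shares of the 130 genes these were 3.08%, 1.54%, 3.85% and 4.62%. The second lay under the share of all genes and the others near it, though genes not chosen low are no matched background here. For klhl41b and apip both old groups held few reads or none, so their order rests on levels near 0.

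In 26 genes at least 1 old mutant library reached the young wildtype range, with 1 such library in 15 genes, 2 in 8 and 3 in 3. The old mutant mean was nearer to young wildtype than to the other lowered groups in 8 genes (6.15%). GLG1 was at 458, 309.7, 325, 358 and 300 in old wildtype, 849.7, 512, 413, 659.5 and 532 in young mutant and 1304, 945, 991, 738 and 770.1 in old mutant telencephali, against 1391, 1089, 1271, 889 and 1186 in young wildtype telencephali, so its old mutants overlapped young wildtype and lay above old wildtype. The trafficking chaperone unc119a, which carries lipid-modified proteins to cilia, was at 24, 26.5, 32.2, 339 and 36.9 in old wildtype, 55.2, 60.6, 394, 52.2 and 223 in young mutant and 630.1, 595, 37.8, 255 and 68.2 in old mutant telencephali, against 442, 553, 451, 479 and 445 in young wildtype telencephali. Each lowered group held both low libraries and libraries near or above the young wildtype level.

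The MYND zinc finger protein zmynd19 was at 118, 139.6, 128, 131 and 145 in old wildtype, 124, 96.6, 120, 91.3 and 106 in young mutant and 98.5, 555, 488, 125 and 576 in old mutant telencephali, against 505, 476, 965, 920.3 and 500.4 in young wildtype telencephali. Here 3 old mutant libraries stood at young wildtype levels and 2 at the level of the other lowered groups. The axon guidance factor draxinb was at 36.6, 65.9, 49.1, 37.6 and 53.1 in old wildtype, 78.5, 38.2, 39.7, 40.6 and 30.8 in young mutant and 35.3, 70.7, 312, 179 and 52.6 in old mutant telencephali, against 158, 128, 269, 140.3 and 153 in young wildtype telencephali, and ppp1r16b, a regulator of protein phosphatase 1, was at 43.5, 67.8, 21.8, 39.3 and 62.3 in old wildtype, 63.6, 71.9, 57.9, 37.7 and 40.8 in young mutant and 90.2, 128, 94.9, 72.8 and 87.7 in old mutant telencephali, against 144, 96.2, 117, 130.2 and 152 in young wildtype telencephali. In ppp1r16b the old mutants were above both other lowered groups in every library. The others of the 8 were MRM1 (a mitochondrial ribosomal RNA methyltransferase), nudt22 and 1 gene with no symbol.

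**Figure D3:**
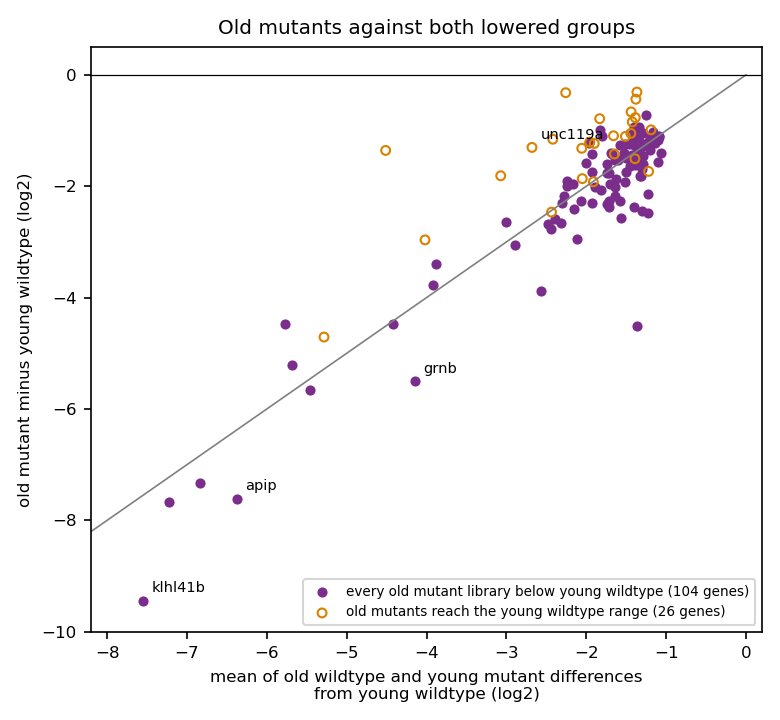
Each point is 1 of the 130 genes. The x axis gives the mean of its old wildtype and young mutant differences from young wildtype and the y axis its old mutant difference from young wildtype, both in log2, with the grey line where they are equal. Filled points are the 104 genes with every old mutant library below every young wildtype one and open points the 26 others, which lie above or near the line for the most part, while klhl41b and apip lie below it.

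In some genes the libraries of 1 group stood at 2 levels. A gap of at least 4-fold between neighbouring libraries of a group, when ordered, was found in 9 genes in old wildtype (6.92%, against 1.72% of all 15075 genes), 6 in young mutants (4.62% against 1.38%) and 15 in old mutants (11.5% against 2.41%), but in 0 in young wildtype (1.42% of all genes), where the selection leaves less room for it. The selection put these genes low in old wildtypes and young mutants, and near 0 few reads suffice for such a gap. The shares of all genes are thus no matched background. In all, 19 genes (14.6%, against 3.29%) had such a gap in at least 1 lowered group. The clearest was si:dkey-19a16.7, at 3.44, 338, 373, 7.68 and 309 in old wildtype, 3.18, 6.74, 0.864, 1.45 and 1.99 in young mutant and 343, 235, 0.879, 1.68 and 0 in old mutant telencephali, against 642, 627, 764, 633 and 696 in young wildtype telencephali. Old wildtype libraries 1 and 4 and old mutant libraries 3 to 5 were near 0, as all young mutants were, and the remaining ones lay between them and young wildtype.

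The same libraries were low in si:ch211-209l18.8, at 1.15, 78.7, 72.5, 1.71 and 79.6 in old wildtype, 0, 0, 0.864, 0 and 0.995 in young mutant and 64, 69.6, 0.879, 0 and 0.975 in old mutant telencephali, against 444, 226, 216, 240.2 and 218 in young wildtype telencephali. A pair of identifiers without symbols split in a way of their own. ENSDARG00000102576 was at 2.29, 69.8, 78.1, 71.7 and 64.6 in old wildtype, 2.12, 163, 1.73, 8.7 and 141 in young mutant and 0, 39, 49.2, 186 and 55.6 in old mutant telencephali, against 276, 393, 467, 239 and 846 in young wildtype telencephali. ENSDARG00000098735 was at 1.15, 39.3, 33, 41.8 and 43.8 in old wildtype, 0, 80.8, 0.864, 1.45 and 56.7 in young mutant and 0, 33.8, 21.1, 77 and 30.2 in old mutant telencephali, against 138, 186, 216, 112 and 373 in young wildtype telencephali. In both, old wildtype library 1, young mutant libraries 1, 3 and 4 and old mutant library 1 held few reads or none. Which libraries were low thus differed between genes, while age and genotype are the same within a group. A chi-square per gene, which grows as 2 libraries differ, had a median of 2.69 between old mutant libraries 1 and 2. Among old mutant libraries 3 to 5 it was 2.69 to 4.22, and across these sets 5.92 to 8.14. Old wildtype library 1 had 5.59 to 6.49 against the other old wildtypes, which had 1.83 to 2.34 among themselves. The part of these sets in the splits was not tested.

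Some of the genes neighbour each other. Of the 130 genes, 111 (85.4%) could be placed in the RefSeq gene order of the zebrafish assembly GRCz12tu, which is not the build the reads were mapped to, so no coordinates are given. Among the 10 genes on each side, 27 of the placed genes had another of the set, forming 16 pairs, and 1.48% of neighbours were in the set, where 0.87% of all placed genes were. Pairs that lay side by side were col8a1b and abi3bpb, ccdc85cb and cyp46a1.2, and nudt22 and si:ch211-107m4.1. Others were apip and tsg101b (4 genes apart), FEZ2 and adcy3a (3), and irge4, lipeb and trim35-28, which lay within a few genes of each other.

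In sorted cells of young fish all 130 genes were listed in Olig2+ and 128 in Mpeg1+ cells. A listed gene need not be detected, and the wildtype Mpeg1+ medians of tm6sf2, nim1k and scxb were 0. As RPM, a read count scaled to the total of its library, 4 genes were above every young wildtype telencephalon in every wildtype Olig2+ library, namely pde5ab, lipeb, loxl2b and sema4ba, and 44 were below, where 11.3% and 24.3% of the 15072 genes listed in both were. The median for pde5ab was 20.5 in Olig2+ cells, against 9.29 in telencephalon, and for loxl2b 41.7 against 23.7. Genes lower by more than 4-fold in Olig2+ cells were 9, among them rh50, rem1, col8a1b and draxinb, beside 3.71% of all genes. No gene was more than 4-fold higher there, beside 1.64% of all. Tissue and sorted cells were extracted with different kits, and the same young wildtype telencephali entered the selection, so their levels are set side by side only.

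Every wildtype Mpeg1+ library was below every young wildtype telencephalon in 77 of 128 genes and above it in 10, where 42.8% and 14.0% of the 14981 genes listed in both were. The medians of 52 genes were more than 4-fold lower, beside 23.7% of all genes. The 2 genes more than 4-fold higher, beside 6.75% of all, were mhc2dab and itgam.1, both known from antigen-presenting or myeloid cells. The median for mhc2dab was 851 RPM in Mpeg1+ cells, against 19 in telencephalon, and for itgam.1 154 against 9.94. Neuronal genes such as camk2b1 (1.48 against 86.3) and sst1.2 (0.0688 against 16.9), and klhl41b (0.164 against 48.4), were nearly absent. For apip the medians were 19.8 in Mpeg1+ and 9.44 in Olig2+ cells, against 26.9 in telencephalon.

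Mutant Olig2+ cells had lower levels of many of the same genes. Under limma with Benjamini-Hochberg adjustment over 22273 genes, called at an adjusted p of 0.05 or less and a log2 difference of at least 1, 42 of the 130 genes (32.3%) were lower in mutant than in wildtype Olig2+ cells, where 12.7% of all tested genes were. None was called higher, where 6.99% of all genes were, while 9 were higher at an unadjusted p under 0.05, and edgeR called 0 and DESeq2 2 higher. The median difference of the 130 genes was -0.55, against -0.01 over all genes, and 90 genes (69.2%) had a mean difference below 0, against 50.4% of all genes. These fish are other animals of another line than those that gave the telencephalon libraries. The 130 genes had a mean level of at least 50 in telencephalon, while a tested gene needed only a mean of at least 5 in Olig2+ cells. Few reads limit calls, so the shares of all tested genes are no matched background for the 130. With a mean of at least 50 in Olig2+ cells, limma called 2598 of all genes lower, against 2820, and 41 of the 130 genes. The number of genes with such a mean was not counted, so these counts give no share to compare.

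No test compared the groups by function for the 42 genes. They were 7 of 11 signalling, 9 of 16 ubiquitin, sorting and cytoskeletal, 6 of 19 surface and matrix, 7 of 24 metabolic, 3 of 16 transcription and RNA, 1 of 9 immune and 9 of 33 ungrouped genes. Of the 27 genes lowered by 2 or more on the log2 scale in both telencephalon comparisons, 12 were lower in mutant Olig2+ cells, as were 30 of the other 103. In 37 of the 130 genes every mutant library lay below every wildtype library, as in 13.7% of all tested genes, and in 3 every mutant library lay above, as in 10.5% of them. The fall was 2 or more on the log2 scale in 24 genes and 3 or more in 12.

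The largest fall was again that of klhl41b, at 1.01, 8.02, 1.23 and 7.26 in mutant and 448, 329.6, 249 and 733 in wildtype Olig2+ cells (log2 difference -6.57 ± 0.68, SE, adjusted p = 3.21e-04). The levels of loxl2b were 6.05, 72.2, 2.45 and 69 in mutant and 899.8, 751, 896 and 1145 in wildtype Olig2+ cells (log2 difference -5.60 ± 0.85, SE, adjusted p = 0.00177). Levels of apip were 7.06, 8.02, 20.8 and 7.26 in mutant and 179.8, 299, 131 and 241 in wildtype Olig2+ cells (log2 difference -4.25 ± 0.57, SE, adjusted p = 0.00101). In these 3 genes the wildtype libraries were all far above the mutant ones.

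The sorting nexin snx16 was at 6.05, 24.1, 1.23 and 18.2 in mutant and 142, 229, 93.8 and 201 in wildtype Olig2+ cells (log2 difference -4.09 ± 0.77, SE, adjusted p = 0.00433). For the aquaporin aqp8b, levels were 19.2, 96.3, 4.9 and 43.6 in mutant and 287, 364, 354 and 752 in wildtype Olig2+ cells (log2 difference -3.93 ± 0.73, SE, adjusted p = 0.0041). For adcy3a they were 20.2, 16, 14.7 and 25.4 in mutant and 492, 536, 255 and 92.2 in wildtype Olig2+ cells (log2 difference -3.84 ± 0.59, SE, adjusted p = 0.0019). None of these overlapped between genotypes, although wildtype library 4 was the lowest wildtype one for adcy3a. The collagen chain col8a1b had no read in any of the 4 mutant libraries and levels of 34.5, 21.8, 6.45 and 24.1 in wildtype ones, which is at least 2.93-fold lower against a floor of 3 reads per library (adjusted p = 0.00691). Without wildtype library 1 that bound was 2.36-fold, and wildtype library 3 lay under the floor, a level of 7.41.

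Glial, signalling and muscle-type genes followed. The oligodendroglial SOX factor sox8b was at 11.1, 108, 8.57 and 14.5 in mutant and 304, 169, 448 and 191 in wildtype Olig2+ cells (log2 difference -3.62 ± 0.72, SE, adjusted p = 0.00595). The Z-disc protein ldb3a was at 23.2, 16, 56.3 and 43.6 in mutant and 345, 318, 443 and 152 in wildtype Olig2+ cells (log2 difference -3.20 ± 0.53, SE, adjusted p = 0.00259). The melanosome receptor gpr143 was at 15.1, 44.1, 22 and 10.9 in mutant and 161, 292, 105 and 215 in wildtype Olig2+ cells (log2 difference -3.10 ± 0.57, SE, adjusted p = 0.00402). The genotypes did not overlap in any of the 3.

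The kinase nim1k was at 44.4, 104, 24.5 and 72.6 in mutant and 581, 449, 324 and 399.7 in wildtype Olig2+ cells (log2 difference -2.97 ± 0.48, SE, adjusted p = 0.00221). The sphingomyelinase smpd2a, whose young and old mutant telencephali had been at 2 levels, was low in all mutant Olig2+ libraries, at 19.2, 24.1, 22 and 21.8 in mutant and 151, 209, 162 and 192 in wildtype Olig2+ cells (log2 difference -2.97 ± 0.46, SE, adjusted p = 0.0019). The death-associated kinase dapk3 was at 18.1, 64.2, 51.4 and 18.2 in mutant and 254, 241, 208 and 291 in wildtype Olig2+ cells (log2 difference -2.89 ± 0.52, SE, adjusted p = 0.00351). Again no mutant library reached a wildtype one.

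Smaller falls that passed the test were those of fezf2, at 364, 722, 225 and 251 in mutant and 693, 1051, 870.5 and 1258 in wildtype Olig2+ cells (log2 difference -1.43 ± 0.39, SE, adjusted p = 0.0231), and of oat, at 152, 84.2, 104 and 138 in mutant and 795, 412, 729 and 173 in wildtype Olig2+ cells (log2 difference -1.94 ± 0.48, SE, adjusted p = 0.0157). A mutant library overlapped the wildtype range of fezf2. The fall of clocka was -1.32 (adjusted p = 0.0351), that of camk2b1 -1.48 (adjusted p = 0.0128), that of hmgcra -1.45 (adjusted p = 0.0224) and that of GLG1 -1.68 (adjusted p = 0.00628). The targeted grnb was at 57.5, 205, 142 and 145 in mutant and 446, 307, 472 and 345 in wildtype Olig2+ cells (log2 difference -1.62 ± 0.43, SE, adjusted p = 0.02), so its transcript was still counted in mutant cells.

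The other named genes that fell in mutant Olig2+ cells were si:ch211-137i24.12, si:dkey-242k1.4, zmynd19, KIAA0930, si:dkeyp-47f9.4, as3mt, ext1b, prr13, frrs1l, adss, fbxo44.5, FEZ2, acap3b, ubxn2a, thnsl2, adcy1a, dusp26 and sfrp5, with log2 differences of -3.70 for si:ch211-137i24.12 to -1.37 for FEZ2, beside 4 genes with an identifier alone. They add the F-box protein fbxo44.5, the phosphatase dusp26, the cyclase adcy1a, the purine enzyme adss, the ArfGAP acap3b and the synaptic protein frrs1l to the list. Genes that did not pass the test in Olig2+ cells were 88. Among them si:dkey-9c18.3, which had next to no reads in old and mutant telencephali, was at 364, 1612, 491 and 846 in mutant and 300.4, 316, 376 and 844 in wildtype Olig2+ cells (adjusted p = 0.278), with no low mutant library. EIF1B was at 1003, 2471, 1094 and 995 in mutant and 930.3, 1607, 969 and 2438 in wildtype Olig2+ cells (adjusted p = 0.886), and si:dkey-19a16.7 at 659.6, 598, 778 and 548 in mutant and 535, 655, 620.1 and 576 in wildtype Olig2+ cells (adjusted p = 0.821). For these 3 the genotypes overlapped.

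**Figure D4:**
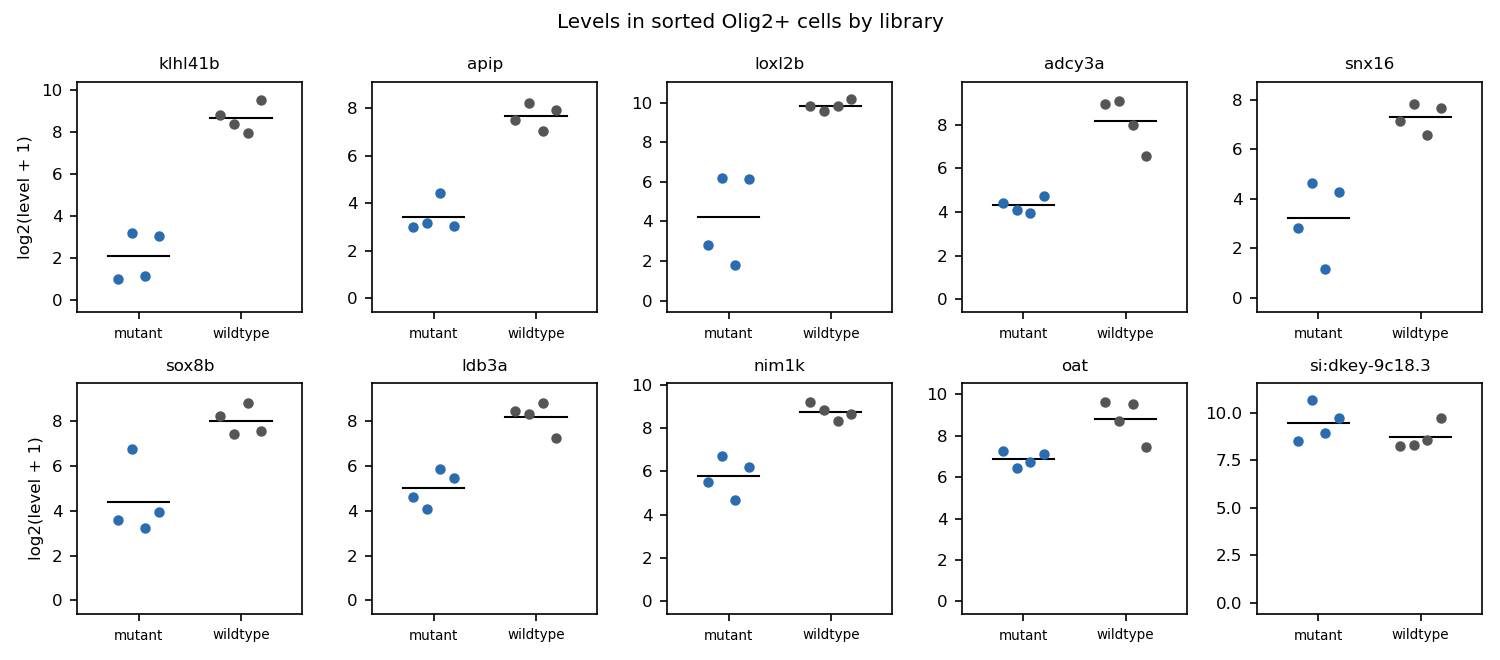
Levels of 10 of the genes in sorted Olig2+ cells as log2(level + 1), with 1 point per library (4 mutant, 4 wildtype) and a line at the group mean. In klhl41b, apip, loxl2b, adcy3a, snx16, sox8b, ldb3a, nim1k and oat all mutant points lie below the wildtype ones, while in si:dkey-9c18.3 they do not.

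The mutant Olig2+ libraries held between 6375992 and 21817841 reads and the wildtype ones between 37100055 and 59252761 reads. Marker sums moved too: 6 neuronal markers summed to 40058 to 69233 in mutant and 71011 to 112380 in wildtype Olig2+ cells, and 10 oligodendrocyte markers to 13113 to 17528 in mutant and 10463 to 14058 in wildtype cells, with no marker at 0 throughout. Their part in the falls was not tested. Without wildtype library 1 the count was 25 genes, and over all ways of leaving out 1 library it was 25 to 48 lower and 0 to 4 higher. Of the 42 genes, 23 passed under every setting tried, klhl41b, apip, loxl2b, adcy3a, snx16, sox8b, ldb3a, nim1k, smpd2a and dapk3 among them. With libraries rescaled to equal totals, which moved the median of all genes to -0.27, the calls over all genes were 3752 lower and 876 higher, against 2820 and 1557, and 48 of the 130 genes were lower and 0 higher.

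Related genes on the same lists were also called in mutant Olig2+ cells by limma, beside the 12.7% of all tested genes that fell and the 6.99% that rose. Of 29 cyclic nucleotide and calcium genes tested 12 fell, adcy1a, adcy3a and camk2b1 among them, of 21 clock and light reception genes 9 fell, clocka and gpr143 among them, and of 32 forebrain factors 10 fell, fezf2 and sox8b among them. None of these lists had a gene called higher, where 1, 0 and 1 genes were higher at an unadjusted p under 0.05 and edgeR called 0, 0 and 0 and DESeq2 1, 0 and 0. Matrix genes gave 8 lower and 1 higher of 37 and methionine and cysteine genes 7 and 3 of 20. Among sterol genes 5 of 31 fell, among vesicle sorting genes 5 of 22 and among mitochondrial amino acid enzymes 3 of 19, with 0 higher by limma and by edgeR in each, 3, 2 and 2 higher at an unadjusted p under 0.05, and 2, 0 and 0 higher by DESeq2. Of 16 muscle and kelch genes klhl41b and ldb3a fell, and antigen presentation genes gave 2 lower and 5 higher of 25. Genes of the IL4, IL13 and STAT6 axis, il13ra2 among them, gave 0 lower and 4 higher of 23. Glycolysis genes gave 1 and 1 of 18 and telomere genes 1 and 1 of 19. Cell cycle genes gave 7 and 1 of 32, protocadherin and guidance genes 5 and 1 of 29, and granulins 1 and 0 of 3.

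In Mpeg1+ cells, libraries are called by their labels, since grnb there went against the telencephalon. Its level was 635, 588, 579 and 499 in libraries labelled mutant and 268, 51.3 and 258 in those labelled wildtype (adjusted p = 0.0787). The labelled mutant libraries were the higher ones. The counts do not check the loss of the protein. Mutant libraries 1 and 2, and 3 and 4, were far more alike than any other pair, with a mean chi-square per gene of 1.81 and 10.3, against 28.4 to 551 for other pairs of 1 sorted group, which is more than sampling noise gives. They were kept as 4 libraries, and the results are also given with each pair averaged.

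Of 126 genes tested, limma called 10 (7.94%) lower in libraries labelled mutant (9 of them also by edgeR and 9 by DESeq2), where 3.57% of all 21155 genes were, and 3 (2.38%) higher, where 4.93% were. The median difference of the 126 genes was 0.01, against 0.05 over all genes, and 50% of them lay below 0, against 47.9%. A tested gene needed only a mean of at least 5 here too, so the shares of all genes are no matched background. With the alike libraries averaged, limma called 0 lower and 0 higher, with 10 lower and 3 higher at an unadjusted p under 0.05, and over all genes 9 lower and 8 higher. Without wildtype library 2 the calls were 22 lower and 11 higher, and without any 1 mutant library 5 and 0. With equal totals they were 13 and 3, while the calls over all genes were 1130 lower and 781 higher, against 756 and 1042. Of the 13 genes called, 0 passed under every setting tried.

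The gene apip had no read in any of the 4 labelled mutant libraries and levels of 319, 522 and 378 in the labelled wildtype ones, at least 164-fold lower against a floor of 3 reads per library (adjusted p = 6.43e-04). For loxl2b, too, no read was counted in labelled mutant libraries, and levels were 137, 601 and 4.93 in labelled wildtype ones, at least 100-fold lower (adjusted p = 0.0364). Without wildtype library 2, which carried its mean, that bound was 28.7-fold, and the level in wildtype library 3 was close to the floor. The endosomal tsg101b, a neighbour of apip in the gene order, was at 62, 81.6, 110.5 and 111 in libraries labelled mutant and 376, 682 and 562 in those labelled wildtype (log2 difference -2.55 ± 0.39, SE, adjusted p = 0.00741). In all 3 genes the labelled groups did not overlap. The level of apip was thus low in mutant telencephali, in mutant Olig2+ cells and in Mpeg1+ libraries labelled mutant.

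The kynurenine aminotransferase kyat3 was at 2.21, 0, 0.825 and 1.67 in libraries labelled mutant and 59.6, 62.4 and 21.8 in those labelled wildtype (log2 difference -4.48 ± 0.84, SE, adjusted p = 0.0168). For phyhd1 levels were 23.6, 30.8, 64.3 and 64.1 in libraries labelled mutant and 501, 391 and 512 in those labelled wildtype (log2 difference -3.45 ± 0.50, SE, adjusted p = 0.00647). The cyclase adcy3a was at 2.95, 0, 0.825 and 0 in libraries labelled mutant and 14.9, 45.8 and 49.3 in those labelled wildtype (log2 difference -4.35 ± 0.92, SE, adjusted p = 0.0248). Also lower were hmgcra (-3.71, adjusted p = 0.0423), sfrp5 (-3.51, adjusted p = 0.0088), si:dkey-181i3.8 (-2.54, adjusted p = 0.0294) and 1 gene with no symbol.

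The 3 genes called higher had been lowered in telencephalon. The ornithine enzyme oat was at 182, 189.5, 207 and 169 in libraries labelled mutant and 23.9, 33.2 and 62 in those labelled wildtype (log2 difference 2.31 ± 0.48, SE, adjusted p = 0.0241). The protocadherin pcdh7b was at 1883, 1922, 1421 and 1287 in libraries labelled mutant and 301, 683 and 755 in those labelled wildtype (log2 difference 1.58 ± 0.35, SE, adjusted p = 0.0306), and sox4b at 1353, 1351, 1290 and 922 in libraries labelled mutant and 379, 696 and 258 in those labelled wildtype (log2 difference 1.57 ± 0.35, SE, adjusted p = 0.0309). At an unadjusted p under 0.05, 15 genes were higher. Of the 9 immune genes limma called 0 lower and 0 higher. The MHC class II chain mhc2dab was at 14618 to 21487 in libraries labelled mutant and 7229 to 27968 in those labelled wildtype (log2 difference 0.21 ± 0.41, SE, adjusted p = 0.777). For itgam.1 the log2 difference was 0.64 (adjusted p = 0.274).

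Libraries labelled mutant held between 25666916 and 31633605 reads and those labelled wildtype between 6107892 and 29077552 reads. Marker sums moved strongly in the same libraries. The 12 leptomeningeal fibroblast markers summed to 3391 to 4650 in libraries labelled mutant, against 328860 to 548379 in those labelled wildtype, where 1 of the markers was at 0, and 12 ependymoglial markers to 81251 to 83631 against 129232 to 427265. The 14 microglial markers summed to 705132 to 759869 against 423240 to 747505, with none at 0. The part of these cells in the calls above was not tested.

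Across both populations, 47 genes were lower in at least 1 and 81 called in neither, 4 of them tested in Olig2+ cells alone. The 5 genes lower in both were apip, loxl2b, adcy3a, hmgcra and sfrp5, and oat was lower in mutant Olig2+ cells and higher in Mpeg1+ cells labelled mutant. Of all tested genes, 12.7% were lower in mutant Olig2+ cells and 3.57% in Mpeg1+ libraries labelled mutant. The shares of all genes lower in either or in both were not counted, so these counts are a description. A difference between populations was not tested.

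**Figure D5:**
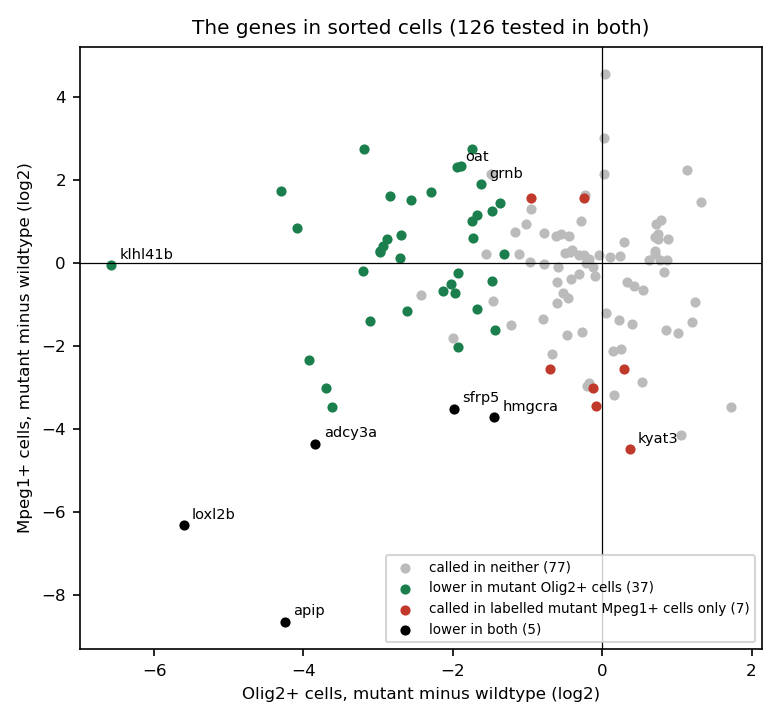
Each point is 1 of the 126 genes tested in both sorted populations. The x axis gives mutant minus wildtype Olig2+ cells and the y axis libraries labelled mutant minus wildtype in Mpeg1+ cells, both in log2. Green points are lower in mutant Olig2+ cells, red points are called in Mpeg1+ cells only and the 5 black points are lower in both. The points of apip and loxl2b on the y axis depend on the pseudocount, since labelled mutant libraries had no read, and oat, drawn in green, was also called higher in Mpeg1+ cells.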

How the data were processed

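Values came from 3 deposited tables of normalised signal, 1 for the 20 telencephalon libraries, 1 for the 8 Olig2+ and 1 for the 7 Mpeg1+ libraries, 35 libraries in all. To make this signal, the authors used STAR with the GRCz10 build for alignment, counted reads per gene and divided the counts by DESeq2 size factors (version 3.9 per the labels) within each table. Dividing by the value of 1 read gave whole reads in every library within 1e-06. RNA was extracted with the RNeasy kit (tissue) or the PicoPure kit (sorted cells), and the SMART-Seq v4 libraries do not mark strand, so overlapping or antisense genes cannot be told apart, nor reads of near-identical copies.

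The genes and lists were chosen with earlier results of these data known. Telencephalon levels were described with a pseudocount of 1 and no test, and no telencephalon value entered the tests of sorted cells. Mutant and wildtype sorted cells were compared with limma 3.58.1 (trend, robust, Benjamini-Hochberg) on log2(signal + 1) for genes with a mean of at least 5, within each table. Calls needed an adjusted p of at most 0.05 and a log2 difference of at least 1. The alternatives were edgeR 4.0.16 and DESeq2 1.42.0 on recovered reads, other pseudocounts, filters and scalings, a replicate block, averaged alike libraries and leaving out each library. The limma step was tested on simulated data.

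Genes were named when among the 25 lowest, called in sorted cells, near young wildtype in old mutants, on a list or at the threshold. Others (among them trim35-28, itm2ba, sst1.2, atf6, pank1b and rem1) were named after their values were seen. At most 2 identifiers without a symbol are printed. Sequences and coordinates are not used here.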

Additional observations from a re-analysis of the deposited data

Results flagged for a closer look

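Single libraries stood apart by Dixon's criterion in 18 of 124 groups of 5 libraries, made up of 30 genes in each of the 4 telencephalon groups and the median of the 130 genes in each of them. The criterion marks about 1 group in 20 by chance when values are normally distributed. Gene levels were not logged here and the genes were picked from the same levels, so that rate does not apply. In old wildtype telencephali these were library 4 for irge4 (78.53) and unc119a (338.9), library 2 for oat (243.8) and KIAA0930 (103.2), and library 1 for rem1 (111.1), MRM1 (65.26) and the pair of identifiers without symbols ENSDARG00000102576 (2.29) and ENSDARG00000098735 (1.145), which were low there. In young mutants they were pcdh1g11 (34.79, library 4), hmgcra (209.0, library 1), nudt22 (62.18, library 3) and draxinb (78.5, library 1). In old mutants they were si:ch211-137i24.12 (392.5) and hmgcra (491.7), both library 2. In young wildtype they were si:ch211-209l18.8 (443.7) and KIAA0930 (327.9) in library 1, draxinb (269.4) in library 3 and, as a low value, si:ch211-105c13.3 (58.43) in library 2.

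In 7 genes every mutant library was below every wildtype one in Olig2+ cells and every library labelled mutant above every one labelled wildtype in Mpeg1+ cells. The log2 differences in Olig2+ and Mpeg1+ cells, in that order, were -1.62 and 1.90 for grnb, -1.94 and 2.31 for oat, -1.74 and 1.01 for as3mt, -1.74 and 2.76 for ext1b, -0.96 and 1.58 for pcdh7b, -1.48 and 1.27 for camk2b1, and -1.89 and 2.35 for a gene with no symbol. Of the 7 genes, limma called only oat and pcdh7b in Mpeg1+ cells. How many of all genes show this order was not counted, and so few libraries separate easily, so the count is a description. The difference between the populations was not tested.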

How the results depend on the processing

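The number of genes that met the conditions was 84 with a mean of at least 100, 256 with the mean differences alone, 27 with differences of -2 or lower, and 128 to 143 when each library was left out. The count of genes with old mutants wholly below young wildtype was 101 to 115 when each library was left out. The median of old mutants minus young mutants was 0.14 with quantile normalisation, -0.0179 without old mutant libraries 1 and 2 (an alternative chosen after seeing the data) and 0.0375 to 0.0928 with each library left out. The median of old mutants minus old wildtype was 0.18 without the libraries high in pineal genes and -0.0428 to 0.0506 with each library left out.

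Among sorted cells, the count lower in mutant Olig2+ cells was 25 to 48 and the count higher 0 to 4 when each library was left out, and the count higher was 2 with DESeq2 and 1 with quantile normalisation. In Mpeg1+ cells the count lower was 18 with DESeq2, 0 with alike libraries averaged and 5 to 22 with each library left out. The count higher was 6 with DESeq2, 0 with alike libraries averaged, 8 with quantile normalisation and 0 to 11 with each library left out. Over all genes, DESeq2 called 1990 lower and 1533 higher in Mpeg1+ cells. Correlations of same-numbered libraries were 0.004 to 0.145 in Olig2+ and -0.011 to 0.000 in Mpeg1+ cells. Those of libraries with different numbers were -0.167 to 0.170 and -0.012 to 0.017. With so few libraries these values cannot decide whether replicate numbers pair the samples. With the replicate block 45 genes were lower and 2 higher in Olig2+ cells, and 3 lower and 0 higher in Mpeg1+ cells. The median over all genes turned from -0.0121 to 0.1867 with DESeq2 in Olig2+ cells and from 0.0549 to -0.1774 in Mpeg1+ cells. The 2 old mutant medians near 0 and the balance of lower to higher calls over all genes in Mpeg1+ cells turned too. No other result that was checked turned its direction. The cause of these shifts was not tested, save that fewer libraries or genes entered some fits. Depth limits genes with few reads most in the Olig2+ libraries of mutants and in Mpeg1+ wildtype library 1.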
